A study of Mus musculus with 6 samples.

Results

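The 808 strongest accessible regions of this ATAC-seq experiment are described here, selected on their mean normalized read count alone: every peak of the authors' deposited table with at least 80, averaged over the 6 libraries. They made up 1.15% of the 70494 peaks and held 13.0% of the summed mean normalized counts. ATAC-seq uses a transposase that inserts sequencing adapters into open chromatin, so a peak with many reads was cut often. Definitive endoderm was derived in culture from mouse epiblast stem cells of the 7H OTX2-dTAG-EGFP line, a BL6/129 hybrid line in which the transcription factor OTX2 is fused to a degradation tag and EGFP. Cells of both groups received 40 ng/ml Activin A and 3 uM CHIR for 16 h, then 100 ng/ml Activin A and 100 nM LDN for 24 h, and live cells were sorted by DAPI. For 24 h from the primitive streak stage, 3 libraries had dTAG13, which recruits the ubiquitin machinery to the tagged protein, and 3 had its solvent DMSO; both groups carried the tagged allele, in a single line. Each library was made from 50000 cells, and because the 3 of a group are technical replicates by the design text, the standard errors (SE) below measure the spread between such libraries and need not cover separate cultures. Since dTAG13 acts on the protein, accessibility does not check that OTX2 was lost.

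Accessible chromatin of a mammalian cell falls into promoters, which are open in most cell types when they lie in CpG islands, and distal elements such as enhancers, which differ between cell types. Many open promoters carry GC boxes, bound by SP and KLF factors, and CCAAT boxes, bound by the trimer NFY, which recognises CCAAT on either strand. Reads also gather on repeats of which the reference genome holds fewer copies than the cell, among them ribosomal RNA genes and the satellite arrays of centromeres, where mouse minor satellite carries the box bound by the centromere protein CENP-B. OTX2 is a homeodomain factor that binds GGATTA and acts in the epiblast and the anterior endoderm and neural plate.

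The promoter sequences are shown because the CCAAT box was the motif whose share differed most between the strongest promoter peaks and weaker ones, as described below. They are the 150 bases before the annotated start, 5′ to 3′ on the strand of the gene (GRCm38.p6, the assembly behind mm10), in lower case with CCAAT, or ATTGG for a box on the other strand, in capitals. The first 5 are the strongest with 3 or more boxes among 455 promoters of coding genes with no annotated exon in that stretch, 49 of which had as many, and the last 2 are called promoters with 2 boxes. Tomm40 encodes the pore of the mitochondrial import complex, Hdgfl2 a chromatin-binding protein, Slc25a42 a mitochondrial carrier and Sel1l a part of the machinery that removes misfolded proteins from the endoplasmic reticulum.
Tomm40, chr7:19715439-19715588 (-): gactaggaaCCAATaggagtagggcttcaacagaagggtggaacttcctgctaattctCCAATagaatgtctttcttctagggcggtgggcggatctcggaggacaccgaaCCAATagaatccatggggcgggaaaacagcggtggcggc
Hdgfl2, chr17:56079484-56079633 (+): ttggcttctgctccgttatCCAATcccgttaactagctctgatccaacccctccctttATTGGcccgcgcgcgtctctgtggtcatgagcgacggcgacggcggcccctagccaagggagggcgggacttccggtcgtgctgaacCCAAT
Fam72a, chr1:131527753-131527902 (+): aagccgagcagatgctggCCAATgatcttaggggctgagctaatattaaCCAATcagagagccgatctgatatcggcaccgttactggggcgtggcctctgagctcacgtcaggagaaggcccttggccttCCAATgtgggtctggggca
Slc25a42, chr8:70212306-70212455 (-): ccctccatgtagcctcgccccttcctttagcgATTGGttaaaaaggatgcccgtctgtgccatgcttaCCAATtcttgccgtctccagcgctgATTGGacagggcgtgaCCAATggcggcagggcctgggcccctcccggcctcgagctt
Sel1l, chr12:91849158-91849307 (-): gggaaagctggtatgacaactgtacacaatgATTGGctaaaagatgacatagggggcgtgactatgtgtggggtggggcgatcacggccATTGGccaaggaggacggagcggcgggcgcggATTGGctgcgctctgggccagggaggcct
Lmcd1, chr6:112273608-112273757 (+): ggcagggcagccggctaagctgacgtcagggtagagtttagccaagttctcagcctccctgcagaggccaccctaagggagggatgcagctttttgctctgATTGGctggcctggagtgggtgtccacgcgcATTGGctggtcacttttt
Zfp868, chr8:69625549-69625698 (-): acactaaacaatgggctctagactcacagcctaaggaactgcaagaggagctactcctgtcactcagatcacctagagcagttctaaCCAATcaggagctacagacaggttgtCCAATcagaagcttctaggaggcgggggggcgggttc

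The repeat sequences are shown because the largest fold changes with small errors lay in them. They are stretches of peaks on the plus strand of GRCm38.p6, in lower case with every match to the CENP-B box, a motif of 15 letters of which 9 are fixed, on either strand, in capitals. Names are the genes to which the authors assigned the peaks, and none of the stretches is said to be part of that gene. Both peaks assigned to Gm10800 are given.
Gm10800, larger peak, chr2:98666244-98666483 (+): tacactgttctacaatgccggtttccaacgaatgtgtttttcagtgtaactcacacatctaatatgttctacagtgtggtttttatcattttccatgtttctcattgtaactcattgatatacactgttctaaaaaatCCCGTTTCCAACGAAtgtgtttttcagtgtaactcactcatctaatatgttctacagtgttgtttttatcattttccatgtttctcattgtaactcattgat
Gm10800, smaller peak, chr2:98665047-98665216 (+): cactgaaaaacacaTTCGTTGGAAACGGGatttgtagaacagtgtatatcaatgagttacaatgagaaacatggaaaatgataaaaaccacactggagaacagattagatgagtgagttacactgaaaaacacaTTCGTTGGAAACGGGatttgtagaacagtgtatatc
Gm44436, chr6:103649083-103649292 (+): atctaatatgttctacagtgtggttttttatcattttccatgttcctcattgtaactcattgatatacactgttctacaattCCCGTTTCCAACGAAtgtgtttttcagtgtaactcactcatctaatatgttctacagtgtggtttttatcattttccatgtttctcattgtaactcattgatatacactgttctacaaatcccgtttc
Dpy19l1, chr9:24542016-24542162 (+): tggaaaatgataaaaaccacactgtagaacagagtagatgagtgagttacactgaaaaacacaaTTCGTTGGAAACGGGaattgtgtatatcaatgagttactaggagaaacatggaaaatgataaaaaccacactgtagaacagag
Pak3, chrX:143483006-143483110 (+): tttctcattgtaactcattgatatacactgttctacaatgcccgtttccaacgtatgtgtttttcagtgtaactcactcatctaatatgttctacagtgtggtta
Gm5614, chr9:35305223-35305462 (+): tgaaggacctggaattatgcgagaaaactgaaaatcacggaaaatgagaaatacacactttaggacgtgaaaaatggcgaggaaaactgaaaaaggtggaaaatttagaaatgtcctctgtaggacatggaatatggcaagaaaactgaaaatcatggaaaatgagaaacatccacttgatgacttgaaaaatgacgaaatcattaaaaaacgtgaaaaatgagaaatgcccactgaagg
For a peak of the ribosomal RNA-like kind, capitals instead mark runs of at least 15 bases shared with the pair of peaks on chromosome 17 that stand first and second by mean.
Cd209a, chr8:3754400-3754569 (+): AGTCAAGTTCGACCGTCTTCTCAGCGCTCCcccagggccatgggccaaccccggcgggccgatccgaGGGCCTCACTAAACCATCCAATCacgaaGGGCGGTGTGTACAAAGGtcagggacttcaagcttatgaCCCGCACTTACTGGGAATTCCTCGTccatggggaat

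The deposited table gives 1 mean, 1 fold change and 1 SE for each peak, so no value of a single library can be printed and whether the groups overlapped cannot be read from it. Depth per library is not given in the sources used here. Means of the 808 regions ran from 80.003 to 18402.8 with a median of 97.2 (quartiles 87.5 and 116), against a median of 7.33 over all peaks, a difference that the choice of the regions fixes. The scale was steep at its top, with 59 regions at 160 or more and 7 at 1000 or more. Just inside the threshold stood the promoter peaks of Pcgf3, a Polycomb RING finger gene, at 80.003 and Cables2 at 80.11. Just outside it were those of Ube3a, a ubiquitin ligase gene, at 79.99 and Rnf138 at 79.98. The authors' deposited table gives these 4 log2 fold changes (dTAG13 over DMSO) of -0.05 (SE 0.20), -0.24 (SE 0.21), 0.36 (SE 0.20) and 0.21 (SE 0.19). The strongest regions were also wide, with a median length of 489 bases against 131, and rich in GC, with a median of 63.9% against 54.8%.

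By position, 707 of the 808 regions (87.5%) had their midpoint within 1000 bases of an annotated transcription start, against 28.9% of all peaks. The share rose with the mean, from 9.21% of peaks under 5 to 90.1% of those from 80 to 160, and was 54.2% of the 59 regions at 160 or more. The authors' own annotation put 711 regions at promoters within 1 kb, 53 in distal intergenic sequence, 22 in introns, 15 and 4 at promoters of the next kilobases, 2 in 3′ UTRs and 1 in an exon. At least 1 base of 806 regions (99.8%) was covered in the peak lists of both groups, and the other 2 only in that of DMSO. Of all 70494 peaks, 48.2% were covered in both lists, 28237 only in that of DMSO and 8297 only in that of dTAG13. A sort by sequence and position gave 11 satellite-like regions, 4 ribosomal RNA-like regions and 12 other regions of which at least 50% of the 31-base words occur elsewhere in the genome. The rest were 700 promoter and 81 distal regions under that share, which need not be single-copy in the cell. The regions lay at 802 assigned genes, and 17 of them stood in 8 runs with less than 10000 bases between neighbours, among them pairs at Sp4, Nr1d2 and Sin3a. Coding genes transcribed away from each other shared 103 of the promoter regions (14.6%), against 6.81% of the weaker promoter peaks.

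The fold changes of these regions were small and mostly positive. In the authors' deposited table their median log2 fold change was 0.13 (quartiles -0.04 and 0.33), against -0.18 over all peaks, and 574 of 808 (71.0%) were above 0, against 41.8%. None reached 1 in either direction, the range being -0.61 to 0.80, while 25577 peaks of the table did. The errors were small as well, with a median SE of 0.19 against 0.73. Over classes of rising mean the median fold change rose from -0.92 under 5 to 0.11 at 40 to 80 and 0.14 at 80 to 160, then was 0.07 for the 59 regions at 160 or more. The median SE fell over the same classes from 1.15 to 0.19 and 0.12. At a mean of at least 200 the median fold change was 0.00. The promoter share rose with the fold change of all peaks up to a mean of 160, and both were lower above it. Among promoter peaks alone the median fold change rose through every class. It was -0.63 under 5, 0.13 at 40 to 80, 0.15 at 80 to 160 and 0.20 for the 32 at 160 or more. The median GC of promoter peaks was largest at 66.3% from 20 to 40 and was 64.7% and 59.3% in the classes of the strongest regions. The part of mean, GC content and position in the positive median was not tested.

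**Figure D1:**
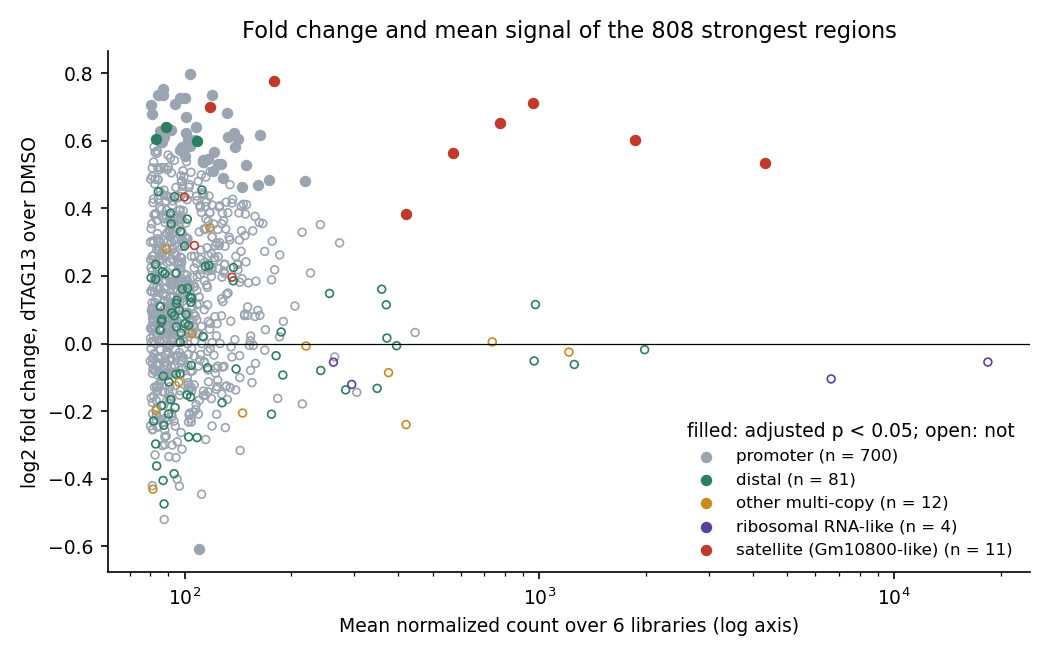
Mean normalized count (log axis) against the log2 fold change of dTAG13 over DMSO for the 808 regions, coloured by kind, with filled points for an adjusted p under 0.05. Satellite-like regions are the only filled points above the mean of Evi5l (218), all at 0.38 or more, while the ribosomal RNA-like regions lie just under 0.

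By the authors' test, with Benjamini-Hochberg adjustment over the table and a threshold of 0.05, 57 of the 808 regions were higher in dTAG13 (7.05%) and 1 was lower (0.124%). Over the 69128 peaks with an adjusted p, 5.26% were called, 1.47% higher and 3.79% lower. The 7.18% called among the strongest regions was thus near the background as a total, and the split between directions was the opposite. Of the 2622 lower calls of the table, 2441 were at weaker distal peaks. Weaker promoter peaks with an adjusted p were called in 1.91%, 0.986% higher and 0.920% lower. Peaks with a mean from 40 to 80 had 91 higher and 48 lower calls of 3773. Without adjustment, 178 of the 808 regions were higher and 10 lower at p under 0.05. Of all 70494 peaks, 4938 were higher and 8965 lower at that p, and of the 19639 weaker promoter peaks, 1395 and 939. No region was in the authors' lists of enriched peaks, which also ask for a log2 fold change of 1: the strongest of their 2599 DMSO-enriched peaks had a mean of 60.3 and the strongest of the 882 dTAG13-enriched peaks 72.6.

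These counts depended on where the fold changes are set to 0. The first 3 zero points that follow lay at -0.18, 0.09 and 0.13 on the deposited scale, beside a median SE of 0.19 over the regions. With the median of all peaks at 0, 179 regions were higher and none lower; with peaks covered in both pooled lists centred on 0, 23 were higher and 5 lower; and with the regions' own median at 0, 19 were higher and 7 lower. Of the 8 satellite-like calls, 8, 8 and 7 remained under these 3 zero points, against 46, 16 and 13 of the 47 promoter calls and 3, 0 and 0 of the 3 distal calls. With the median of each class of like GC at 0, 78 regions were higher and 1 lower, and 8 satellite-like, 38 promoter and 3 distal calls remained. With that of weaker promoter peaks at 0, 44 were higher and 3 lower, and 8, 35 and 2 of the calls remained. Whether the kinds differ in this was not tested, and the median SE was 0.10 over the satellite-like and 0.19 over the promoter regions.

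**Figure D2:**
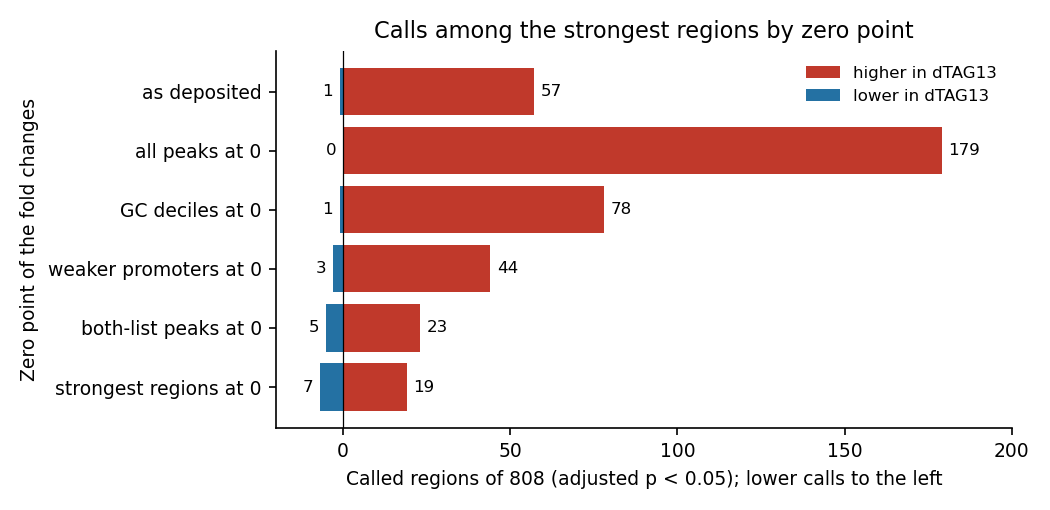
Number of the 808 regions called higher (right) or lower (left) in dTAG13 at an adjusted p under 0.05, for the fold changes as deposited and for 5 other zero points. The higher calls run from 19 to 179 and the lower ones from 0 to 7.

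Satellite-like regions stood out by fold change. All 11 had a log2 fold change above 0 in the authors' deposited table, with a median of 0.56 and a range of 0.20 to 0.78, and 8 were called higher. The larger Gm10800 peak (chr2:98666244-98667314, mean 4336) had 0.54 (SE 0.06, adjusted p 2.48e-16), and the Gm10801 peak next to it (chr2:98662237-98662966, mean 1856) 0.60 (SE 0.07, adjusted p 2.58e-15). These fold changes amount to a level of 5132 in dTAG13 against 3541 in DMSO for the first and 2239 against 1474 for the second, computed from the deposited mean and fold change with equal weight for each group. Gm44436 (chr6:103649083-103649292, mean 957) had 0.71 (SE 0.08, adjusted p 6.37e-15). For the smaller Gm10800 peak the deposited value was 0.65 (SE 0.10), for Pak3 0.56 (SE 0.10), for Gm5614 0.38 (SE 0.09) and for Dpy19l1 0.78 (SE 0.14). Cldn34d, the least like the larger Gm10800 peak in sequence, had 0.70 (SE 0.19). The 3 that were not called, Gm21738, Gm10722 and Gm10717, had means of 136, 107 and 99.8 and fold changes of 0.20, 0.29 and 0.43.

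The sequences printed above show what these regions share. Matches of at least 50% of their length to the larger Gm10800 peak defined the kind, and median GC was 35.4%, against 63.9% over the 808 regions. Cldn34d was matched over 90.4% of its length, but its longest match was only 67.5% identical. Runs of at least 15 bases shared with the larger Gm10800 peak made up 5.69% of it, against 87.2% or more of each of the others. Its place in the kind thus rests on the threshold of the match. Set against itself, the Gm44436 sequence was most alike at a shift of 120 bases (74.4% identical), and the Gm5614 sequence at 234 bases (94.1%), the unit lengths by which mouse minor and major satellite are known. The larger Gm10800 peak was most alike at 234 bases (53.4%) and the Gm10801 peak at 120 (43.6%), against medians of 28.5% and 28.8% over all shifts tried. Other peaks long enough to be tried were most alike at neither length, Cldn34d at 144 bases (67.9%) and the smaller Gm10800 peak at 61 (46.8%). The CENP-B box was found in 26 of the 70494 peaks (0.0369%), 7 of them among the 808 regions, and 5 of these were satellite-like: both Gm10800 peaks, Gm10801, Gm44436 and Dpy19l1, all called higher. It was also met at the promoters of Tmx3, called higher, and Il6st, with a deposited fold change of 0.16 (SE 0.19); none of the 19 weaker peaks with the box was called. This motif was chosen after the sequences and their values had been seen. Reads from one satellite copy can map to another, so the 11 regions are not independent of each other, and how reads with several matching places were treated is not given in the sources used here.

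**Figure D3:**
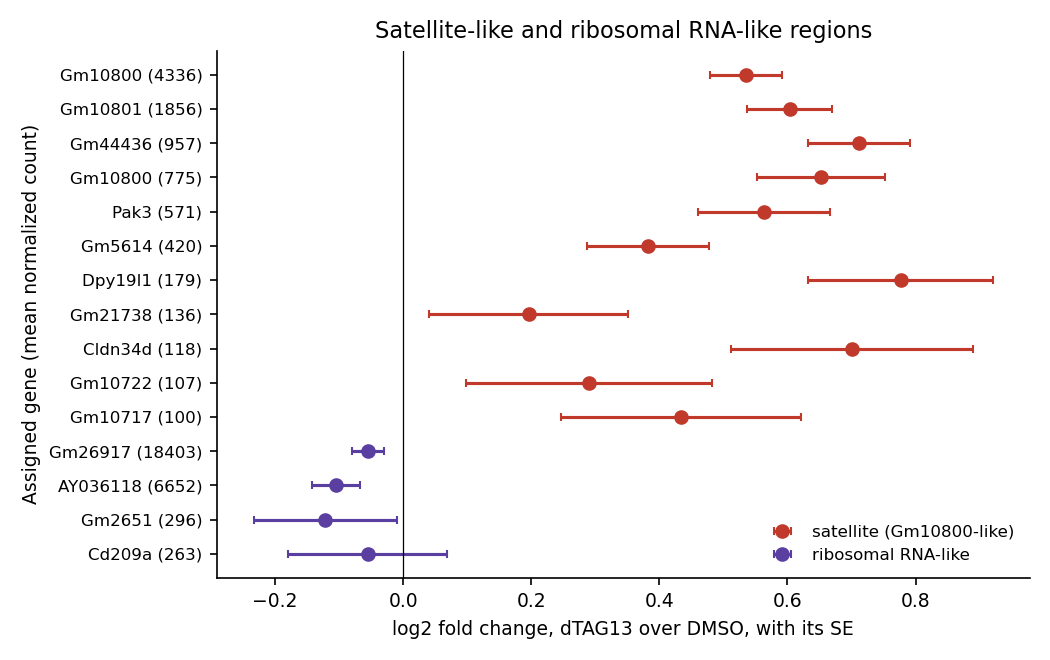
Deposited log2 fold change with its SE for the 11 satellite-like and 4 ribosomal RNA-like regions, named by assigned gene with the mean normalized count. The satellite-like regions lie between 0.20 and 0.78 and the ribosomal RNA-like ones between -0.12 and -0.05.

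The pair of regions with the largest means was ribosomal RNA-like, and none of the 4 of this kind was called. The peak at Gm26917 (chr17:39843034-39847318) had the largest mean of the table, 18402.8, and a deposited change of -0.05 on the log2 scale (SE 0.02, adjusted p 0.177), and that at AY036118 next to it a mean of 6652 and -0.10 (SE 0.04, adjusted p 0.0781). Regions assigned to Gm2651 and Cd209a, which matched these 2 over 79.5% and 100% of their length, had means of 296 and 263 and fold changes of -0.12 and -0.06. The remaining regions among the 10 of largest mean were distal or multi-copy and none was called: Gm11668 (mean 1981, -0.02), an intron of Cdk8, a kinase of the Mediator complex (1255, -0.06), Gm25352 (1212, -0.03), Gtpbp4 (975, 0.12) and Gm18604 (967, -0.05). Of the 12 other multi-copy regions none was called, and their deposited fold changes ran from -0.43 to 0.34. No region matched the mitochondrial genome. Satellite-like regions thus had means of 99.8 to 4336 and fold changes of 0.20 or more. The 4 ribosomal RNA-like regions had means of 263 to 18402.8 and fold changes under 0. This last kind was defined by matches to the chromosome 17 pair alone, so ribosomal RNA sequence unlike that pair would be sorted elsewhere.

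Of the 700 promoter regions 46 were called higher and 1 lower, a share of 6.71%. It was 7.18% of all 808 regions, 5.26% of all peaks and 1.91% of weaker promoter peaks, whose errors were larger (median SE 0.47 against 0.19). The median log2 fold change of the 700 was 0.15 in the authors' deposited table, against 0.04 over the 19639 weaker promoter peaks. The 10 most positive called regions, the satellite-like Dpy19l1 and Gm44436 included, began with 5930403N24Rik (chr10:37140965-37141505) at 0.80 (SE 0.18, adjusted p 0.00123). Zfp317, a zinc finger gene, had 0.75 (SE 0.21), and the peak given to Gm26753, whose midpoint lay 29 bases from a start of Zfp53, had 0.74 (SE 0.19). Tmx3, for a disulfide isomerase of the endoplasmic reticulum, also had 0.74 (SE 0.21), as did Opn3, an opsin (SE 0.16, adjusted p 0.00115). Rab30, a small GTPase of the Golgi, and Uba6, an enzyme that activates ubiquitin, each had 0.73 (SE 0.18), and Pkn2, a protein kinase, 0.71 (SE 0.19). In levels, Opn3 amounted to 149 in dTAG13 against 89.5 in DMSO and Rab30 to 125 against 75.3. Tmem256 (chr11:69838028-69838614), for a small membrane protein, was the 1 lower call, at -0.61 (SE 0.17, adjusted p 0.0185), or 87.0 against 133.

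Tmem256 lost its call with the median of all peaks at 0 (adjusted p 0.12) and with the median of each class of like GC at 0 (adjusted p 0.107). The Tmx3 call was lost with the regions' own median at 0 (adjusted p 0.0623). Zinc finger genes named Zfp had 17 regions, 4 of them called higher (Zfp317, Zfp868 at 0.68, Zfp444 and Zfp28 at 0.62), a group singled out after its values were seen and too small to be read against the 7.05% called higher among the 808 regions. Sel1l, whose 3 CCAAT boxes are printed above, had 0.61 (SE 0.16), and Lmcd1 0.71 (SE 0.20). Tomm40, Hdgfl2, Fam72a and Slc25a42, the other printed promoters with 3 or more boxes, had 0.26, 0.22, 0.19 and -0.01, none called. Among the 700, Spearman's rank correlation of the fold change with the mean was 0.10, with GC content 0.06 and with length -0.02, and Pearson's r was 0.05, 0.05 and 0.00, across promoters that share the same libraries.

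The CCAAT box set the strongest promoters apart from weaker ones. Within 100 bases of the midpoint, on either strand, it was found in 458 of 700 (65.4%, 95% Wilson interval 61.8 to 68.9) against 27.1% of the 19639 weaker promoter peaks (26.5 to 27.8). Its letters in reverse order, TAACC, a control of the same composition added after the data had been seen, were in 13.7% and 13.9%. By mean, the CCAAT share was 19.0% of promoter peaks under 5, 17.9% from 5 to 10, 31.9% from 20 to 40, 51.0% from 40 to 80, 65.5% from 80 to 160 and 56.3% at 160 or more, where only 32 peaks gave an interval of 39.3 to 71.8. All windows were of 1 width, so the greater length of strong peaks did not give them more bases to search. Mean is the value that chose the regions and peaks are not replicates, so these shares are a description with no test. The intervals cover counting error over peaks only.

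**Figure D4:**
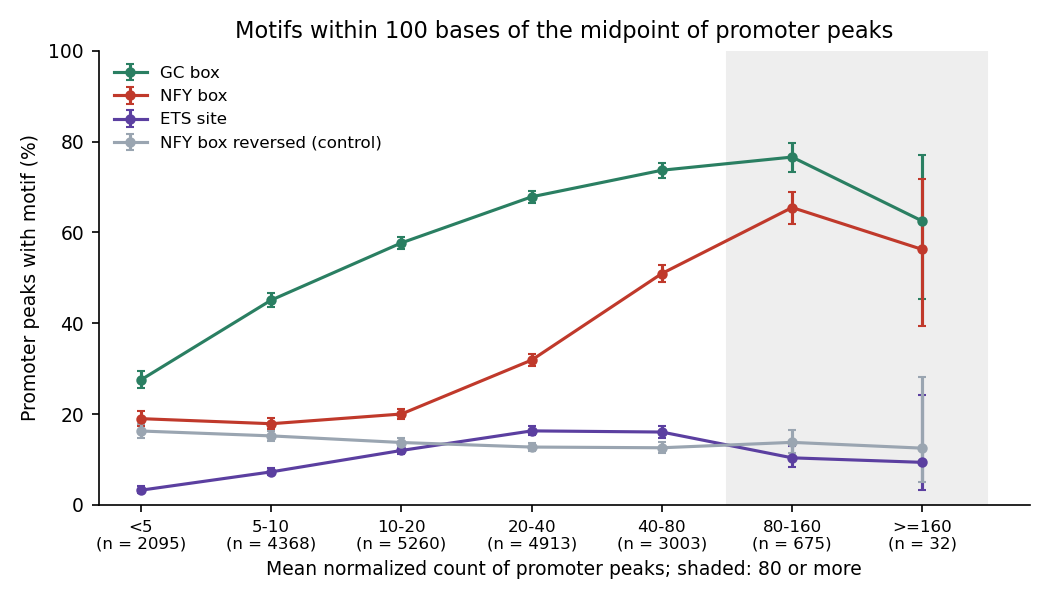
Share of promoter peaks with each motif within 100 bases of the midpoint, by mean normalized count, with 95% Wilson intervals; classes of 80 or more are shaded. The share with CCAAT (drawn as the NFY box) climbs from 19.0% to 65.5% before the last class of 32 peaks, the GC box share from 27.5% to 76.6%, and the reversed control stays between 12.5% and 16.3%.

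Of the other motifs, the GC box GGGCGG was in 76.3% of the strongest promoters against 56.7% of weaker ones. For the ETS site CCGGAAG the shares were 10.4% and 11.7%, for the palindromic NRF1 site 0.857% and 1.35%, and for the E-box CACGTG 6.71% and 6.97%. By mean, the ETS share was 3.25% of promoter peaks under 5, 16.3% from 20 to 40, 16.1% from 40 to 80 and 10.4% from 80 to 160. In the same classes the NRF1 share was 0.191%, 2.30%, 1.37% and 0.889%. The YY1 site was in 0 of 700, which allows a share of up to 0.546% by the Wilson interval, against 1.05%. GGATTA, the OTX letters, was in 3.43% against 3.80% of weaker promoters and 8.81% of all peaks, and its reversed letters ATTAGG in 2.57%, 3.18% and 7.06%. In the 81 distal regions CCAAT was in 33.3% (24.0 to 44.1) against 23.5% of weaker distal peaks, the GC box in 43.2% against 9.67%, GATA's AGATAA in 13.6% against 20.3% and the OTX letters in 6.17% (2.67 to 13.6) against 10.9%. Distal was set by distance to an annotated start, so these regions need not be enhancers. The authors' own annotation placed 11 of the 81 (13.6%) in its promoter class nearest the start, against 4.03% of weaker distal peaks. Their part in the shares of CCAAT and the GC box was not tested. A match of letters is not a bound site.

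Relative to the nearest annotated start, the boxes lay upstream. From 150 to 31 bases before it, 55.1% of 699 strongest promoter starts held CCAAT, against 22.4% of 16682 starts of weaker promoter peaks, and the reversed letters were in 7.58% and 9.79%. In bins of 20 bases the share was largest from 80 to 61 bases upstream, 16.9% against 6.22%. Multiple copies set the groups further apart: 175 of the 699 strongest promoter starts had 2 or more in that window, against 5.49% of the weaker ones. Around the midpoint, 42 of the 700 had 4 or more, against 0.443% of weaker promoter peaks. The box faced forward 321 times and backward 290 times. Neighbouring boxes were a median of 40 bases apart, with 17.7% of 226 spacings at 30 to 34 and 16.4% at 40 to 44 bases; in weaker promoter peaks the median was 34.5 and the same classes held 17.8% and 14.5% of 1100. The sequences printed above show such arrays, with Slc25a42 holding 4 boxes.

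**Figure D5:**
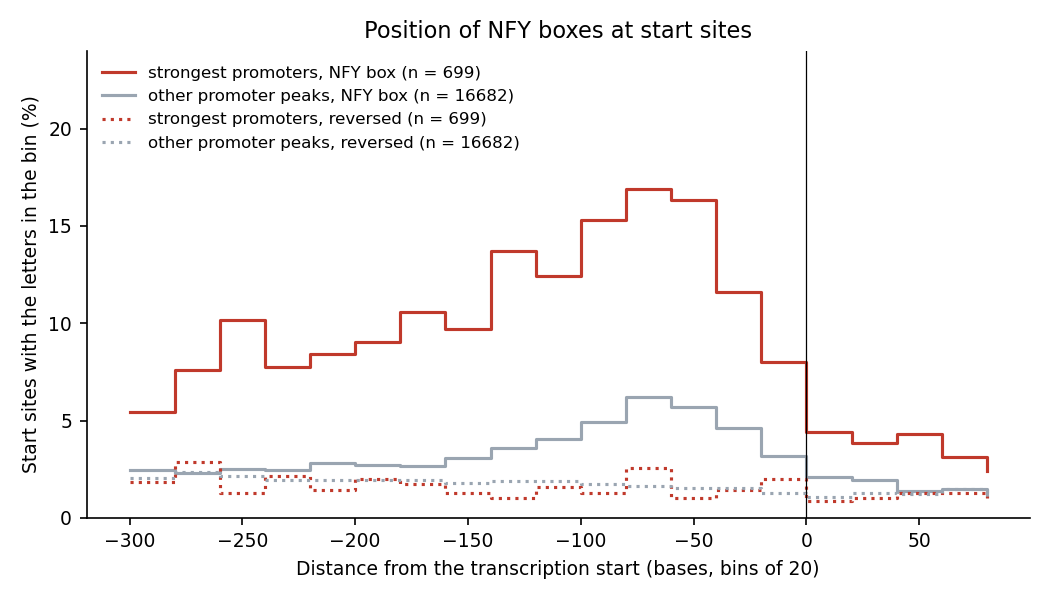
Share of start sites with CCAAT, the NFY box (solid), or its reversed letters (dotted) in bins of 20 bases, for strongest and weaker promoter peaks. Both solid lines peak between 80 and 61 bases upstream, at 16.9% and 6.22%, and the dotted lines reach at most 2.86% in the strongest promoters.

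Promoters with the box had a somewhat lower median fold change than those without, a difference that was not tested. In the authors' deposited table the median log2 fold change of the 458 strongest promoters with CCAAT was 0.12, with 24 called higher and 1 lower (5.46% called). It was 0.19 for the 242 without, with 22 higher and none lower (9.09%). Promoters shared by a divergent pair of coding genes had a median of 0.17 (6 higher and 1 lower of 103, 6.80% called), against 0.14 (40 higher of 597, 6.70%). The share called was 7.18% of the 808 regions and 5.26% of all peaks.

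No definitive endoderm marker and no gene of the endoderm factor list had a region among the 808. As only 1.15% of all peaks are among them, and the endoderm factors had 82 peaks, a count of 0 is near that share and says little about these genes. All 10 definitive endoderm markers had a peak at a start, with means from 4.07 at Sox17 to 58.1 at Gata6, and none reached 80. Neural markers had start peaks at 4 of 4 genes (13.1 to 26.7), mesoderm markers at 3 of 4 (4.31 to 22.4), extra-embryonic endoderm markers at 0 of 4 and pluripotent markers at 1 of 4, Sox2 at 15.9, with none listed for Pou5f1, Nanog or Zfp42. Start-site accessibility of these neural genes thus overlapped that of the endoderm markers. By the authors' gene column, the lists of 18 endoderm factors, 14 primitive streak genes, 18 pluripotency genes, 13 WNT feedback genes, 15 cell cycle genes, 16 RNA polymerase II and splicing genes, 10 mitochondrial regulators and 8 ubiquitin genes had no region among the 808.

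Other lists had a few, 20 regions in all, and none was called. NODAL, activin and BMP genes had 3 of 17 genes: Skil and Ski, which restrain SMAD transcription factors, at 0.22 (SE 0.18) and 0.05 (SE 0.17) on the log2 scale in the authors' deposited table, and the inhibitor Lefty2, at a region 4320 bases from its start, with 0.06 (SE 0.21). Hippo and TEAD genes had the tumour suppressor Nf2, at -0.14 (SE 0.19). The immediate early genes had Jun, at 0.09 (SE 0.18), and Fos, at a region 18531 bases away, at -0.18 (SE 0.20). Of 25 chromatin genes Kmt2b, a histone methyltransferase, had 0.16 (SE 0.19), and the histone variant gene H2afz was the only one of 59 histone genes, at -0.08 (SE 0.20). Names starting with Rps or Rpl gave 7 regions of 92 genes, with a median of 0.29, of which 2 belong to kinases (Rps6ka5 and Rps6ka2) and 5 to ribosomal proteins: Rps19, Rpl13a, Rpl15, Rpl37 and Rps21. The largest of these was Rpl15, at 0.54 (SE 0.19, adjusted p 0.0609), in a region 16 bases from a start of Nkiras1. Of 50 genes named Eif, 5 had one (Eif5a, Eif4a1, Eif4g2, Eif5 and the kinase Eif2ak3), with a median of 0.10 and a range of -0.34 to 0.42. These lists were picked with earlier results known, and the background for a call was 5.26%.

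The authors' marks of genes with changed expression, carried in the deposited table beside the peaks, were on few of the regions: 10 (1.24%) stood beside a gene marked as down and 31 (3.84%) beside one marked as up, against 2.86% and 3.01% of all peaks.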

How the data were processed

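ATAC-seq libraries of 6 samples (3 DMSO, 3 dTAG13) were compared through the authors' deposited table of all peaks. The signal in it is the mean normalized read count over the libraries, made by the authors, and the normalization step is not given in the sources used here. The log2 fold changes and their SE, the score of each peak, and the p-values and adjusted p-values were used as deposited; fold changes below 0 have DMSO as the higher group, per the file headers. The submitters' processing notes name fastp, Bowtie2, MACS2, featureCounts, HOMER 4.11 and ChIPseeker, and the build mm10; duplicates, read-end shifts, multi-mapped reads and thresholds are not given in the sources used here. The positions of the peak lists, deposited per group, come from pooled libraries. No values per library were used, so no test of the libraries was run.

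The authors' adjusted p was recomputed over 69128 peaks (largest difference 3.96e-07); 1366 peaks have none. Midpoints were set against 77200 start sites of GENCODE mouse release 21, after peak positions had been checked against the lengths of 21 chromosomes of GRCm38.p6. Copies were counted as 31-base words over 66 sequences, and families by BLAST 2.17.0 (e-value 1e-05). Other code used Python 3.11.15, numpy 2.4.6 and pandas 2.3.3, figures matplotlib 3.10.9, and the functions were tested on simulated data. The 21 motifs were searched on both strands within 100 bases of each midpoint. Positions are 1-based.

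The regions, the 19 gene lists and the motifs were chosen with earlier results of these data known. Named regions are the 10 of largest mean, the 10 most positive and the 10 most negative (1 existed) called fold changes, the called regions of listed genes (none existed) and the pairs beside the threshold; all others, the printed sequences included, were chosen after their values were seen. Alternatives covered the mean, the zero point, the threshold, repeats, distance, overlap and motif window.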

Additional observations from a re-analysis of the deposited data

How the results depend on the processing

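The main counts were 58 called regions, 57 higher and 1 lower, a surplus of 56. A mean of at least 60 gave 92 calls with 7 lower; a mean of at least 200 gave 7, all higher (surplus 7). The median of all peaks at 0 gave 179 calls, all higher (surplus 179); that of the peaks in both lists gave 28, 23 higher and 5 lower (surplus 18); the regions' own gave 26, 19 higher and 7 lower (surplus 12). The median of each class of like GC at 0 gave 79, 78 higher and 1 lower (surplus 77). The median of weaker promoter peaks, a zero point chosen after seeing the data, gave 47, 44 higher and 3 lower (surplus 41). An adjusted p under 0.01 left 18, all higher and 0 lower; adding a log2 fold change of at least 1 left 0. The share at a start, 87.5%, was 85.0%, 89.7% and 91.5% within 500, 2000 and 5000 bases, and 84.4% and 40.5% at means of at least 100 and 200. The share in both lists, 99.8%, was 96.9% with an overlap of 50% of both peaks and 97.3% at a mean of at least 200. The CCAAT share, 65.4%, was 45% and 73% within 50 and 150 bases, and 55.1% from 31 to 150 bases before the start, a window added after seeing the data. Leaving out the repeats, also added then, gave 49 higher and 1 lower, with a median log2 fold change of 0.13, as in the main setting. That median was 0.13, 0.16 and 0.00 at means of at least 60, 100 and 200, and 0.13 under a mean of 1000. No paired analysis was possible because the table carries no value per library, and leaving out each replicate in turn was not run for the same reason. Depth per library is unknown, so the SE of each peak is the only error, and p-values at strong regions rest on smaller errors than at weak ones.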
